A study of Homo sapiens with 6 samples.

Results

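Interferon-stimulated genes were examined in REH, a human cell line derived from B-cell precursor leukemia with the ETV6/RUNX1 fusion. A list of 45 such genes was taken, and every catalogue probe whose RefSeq accession maps to 1 of them was used. This gave 53 probes for 44 of the 45 genes, out of 19721 gene symbols with a catalogue probe on the array, and 41 of the genes had a probe bright enough to be tested. IFI27 had no matching probe and was not analysed here. The 6 one-colour arrays fall into 3 control arrays, from cells given a non-targeting shRNA, and 3 knockdown arrays, from cells given an shRNA against the fusion. Both groups share the line and the treatment with a lentiviral vector carrying GFP, after which GFP-positive cells were sorted. According to the study, the hairpin against the fusion targets its ETV6 part, REH cells lack the other ETV6 allele, and the non-targeting hairpin was itself designed on ETV6 without hitting the fusion. All arrays therefore come from 1 cell line that took up a vector, and what transduction alone does to these genes cannot be told apart from their resting level. P-values measure the spread between arrays that the study calls biological replicates.

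Type I interferons bind a receptor of IFNAR1 and IFNAR2 on the cell surface. Their signal reaches the nucleus through STAT2 and IRF9 and acts on the interferon-stimulated response element (ISRE) in front of target genes, whereas type II interferon acts chiefly on the gamma-activated site (GAS). The products block viral entry, destroy or sequester viral RNA, or feed back on the pathway. Many of them are also expressed at a resting level without added interferon.

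The ISRE letters are shown first, as they are the sequence feature many of the genes share and the rule did not use. In the RefSeq promoters (GRCh38.p14, 250 bases before to 50 after each start), 36 of the 45 genes had an entry. The core GAAANNGAAA, searched on both strands, was in at least 1 promoter of 26 of these 36 genes (72.2%), against 4.38% of the 27305 genes of the table. The GAS core TTCNNNGAA was in 12 of 36 (33.3%), against 9.38% of all genes. The windows below are 60 bases long, 5′ to 3′ on the gene's strand, with ISRE matches in capitals, and TTTCNNTTTC is the same core on the other strand. They come from genes whose 3 control and 3 knockdown values did not overlap: first 4 with lower values after knockdown, IFI44L (chr1:78620259-78620318, + strand), IFIT1 (chr10:89392482-89392541, + strand), IFIT3 (chr10:89332410-89332469, + strand, the downstream of its starts) and BST2 (chr19:17405726-17405785, - strand), then 3 with higher values, MX1 (chr21:41431829-41431888, + strand, the most downstream of its starts), HERC5 (chr4:88456969-88457028, + strand) and IFITM3 (chr11:320878-320937, - strand).
IFI44L: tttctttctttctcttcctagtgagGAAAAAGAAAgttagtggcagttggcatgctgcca
IFIT1: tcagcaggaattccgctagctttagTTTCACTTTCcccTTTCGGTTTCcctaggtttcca
IFIT3: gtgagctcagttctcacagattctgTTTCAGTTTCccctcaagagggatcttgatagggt
BST2: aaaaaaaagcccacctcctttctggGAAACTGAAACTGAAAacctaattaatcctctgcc
MX1: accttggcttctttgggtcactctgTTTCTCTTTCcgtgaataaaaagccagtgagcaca
HERC5: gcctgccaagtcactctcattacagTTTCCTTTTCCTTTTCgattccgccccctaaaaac
IFITM3: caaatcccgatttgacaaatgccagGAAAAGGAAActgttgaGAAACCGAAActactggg
The core was present in genes with higher and with lower values alike: in 3 of 3 genes with an entry whose groups did not overlap and were higher, and in 5 of 7 that were lower. HERC6 and SAMD9L had no match in this window. A match describes letters only, and the promoters of OAS2, GBP2, IFIT2, IRF7, TRIM22, OASL, IFITM2, USP18 and MX2 were not in the table.

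The arrays had median raw intensities of 66 to 75, compared with 42.0 to 47.5 for their negative control spots, and all arrays lay on 1 slide. The targeted transcript was read by 1 retained ETV6 probe, at 7.92, 8.05 and 8.37 in control replicates 1 to 3 and at 7.50, 7.46 and 7.29 in knockdown replicates 1 to 3. Values here and below are normalized intensities on a generalised log2 scale, nearly equal to log2 where probes are bright and compressed where they are dim. The groups did not overlap, with a difference of -0.70 in log2 (SE 0.14; adjusted p = 0.0569 by limma, Benjamini-Hochberg over all 28997 retained probes), so that this probe did not pass the threshold of 0.05. Whether it lies in the fused part of ETV6 was not tested. By the study's account the fusion was silenced, which it shows by Western blot and RT-qPCR outside these arrays.

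Both replicate 1 arrays stood apart from the other 4. Across all retained probes, the deviations of control and knockdown replicate 1 from their group means correlated at r = 0.40, and each replicate 1 array correlated with the other group's replicates 2 and 3 at -0.31 to -0.24. Where leaving out these arrays, or any single array, moved the log2 fold change of 1 of the 14 genes described one by one by more than 1.5 times or changed its call, the value without it is given. On the slide, control replicates 1 and 2 lay in row 1, and control replicate 3 lay in row 2 with all knockdown arrays, so that row and group can be told apart through control replicate 3 alone.

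Signal was detected for 41 of the 44 interferon-stimulated genes with a probe, while 14005 of 19721 gene symbols on the array passed the same filter, and the labels name no added interferon. The representative probe of all 41 tested genes was well above background on all 6 arrays by the scanner software's flag. Raw intensity over the median of the negative control spots, taken as the median of the 6 arrays, ran from 1.81 for HERC6 to 280 for ISG15, a ubiquitin-like modifier that is among the best known interferon targets. Levels of different probes cannot be ranked against each other, since each probe binds with its own strength. EPSTI1, OASL and GBP2 were not well above background on any array and were not tested. GBP2, a guanylate-binding GTPase, measured 5.54, 5.45 and 5.42 in the controls and 5.12, 5.11 and 4.93 in the knockdowns, with ratios to the negative controls of 1.03 to 1.42, so that both groups have only a bound.

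**Figure D1:**
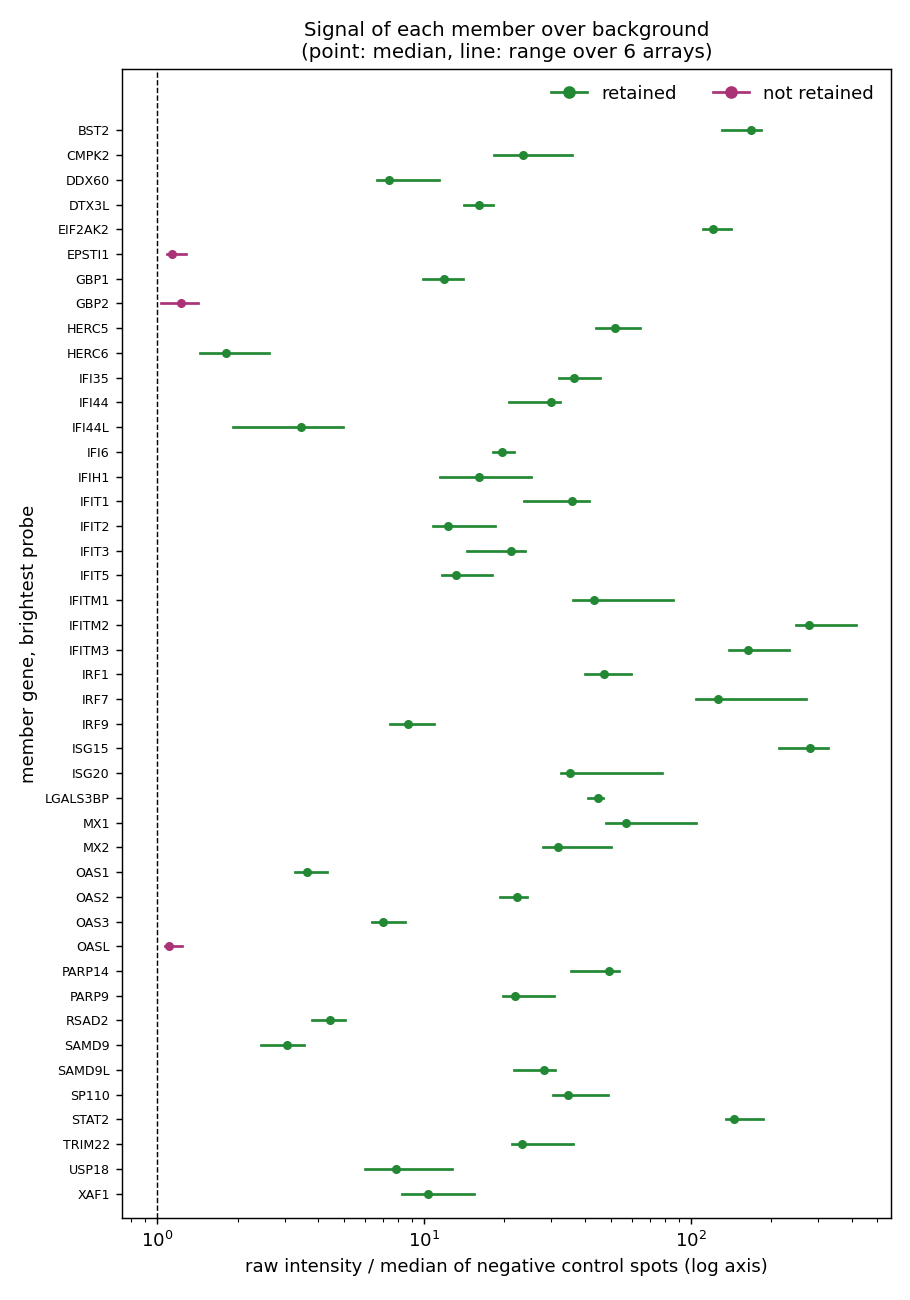
Raw intensity of the brightest probe of each gene divided by the median of the negative control spots of the same array (log axis), with the point at the median and the line over the range of the 6 arrays. EPSTI1, GBP2 and OASL lie near 1, while the other genes lie above it, from 1.81 for HERC6 to 280 for ISG15.

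Without a block for the replicate number, no interferon-stimulated gene changed past the threshold after fusion knockdown, and with the block IFI44L alone did (limma, adjusted p = 0.00981). Of 28997 retained probes, 451 (1.56%) had an adjusted p under 0.05, 115 higher and 336 lower, and none of the 50 member probes was among them. With the block, 887 probes (3.06%) were called. At an unadjusted p under 0.05, 9 of 41 genes passed (22.0%; 10 of 50 probes, 6 higher and 4 lower), against 12.2% of all retained probes. The 3 control and 3 knockdown values did not overlap for 11 of 41 genes (26.8%), against 18.6% of all probes. Of these, 4 were higher (9.76%, against 8.77% of all probes) and 7 were lower (17.1%, against 9.83%). For a single gene, an exact permutation test of 3 against 3 arrays cannot give a two-sided p under 0.1. By group means, 27 genes were higher and 14 lower after knockdown, with a median log2 fold change of 0.09 over the genes, against -0.0037 over all retained probes. The list thus held values on both sides of 0, and the median spread within a group was 0.136 (SD) for the genes and 0.151 for all probes.

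**Figure D2:**
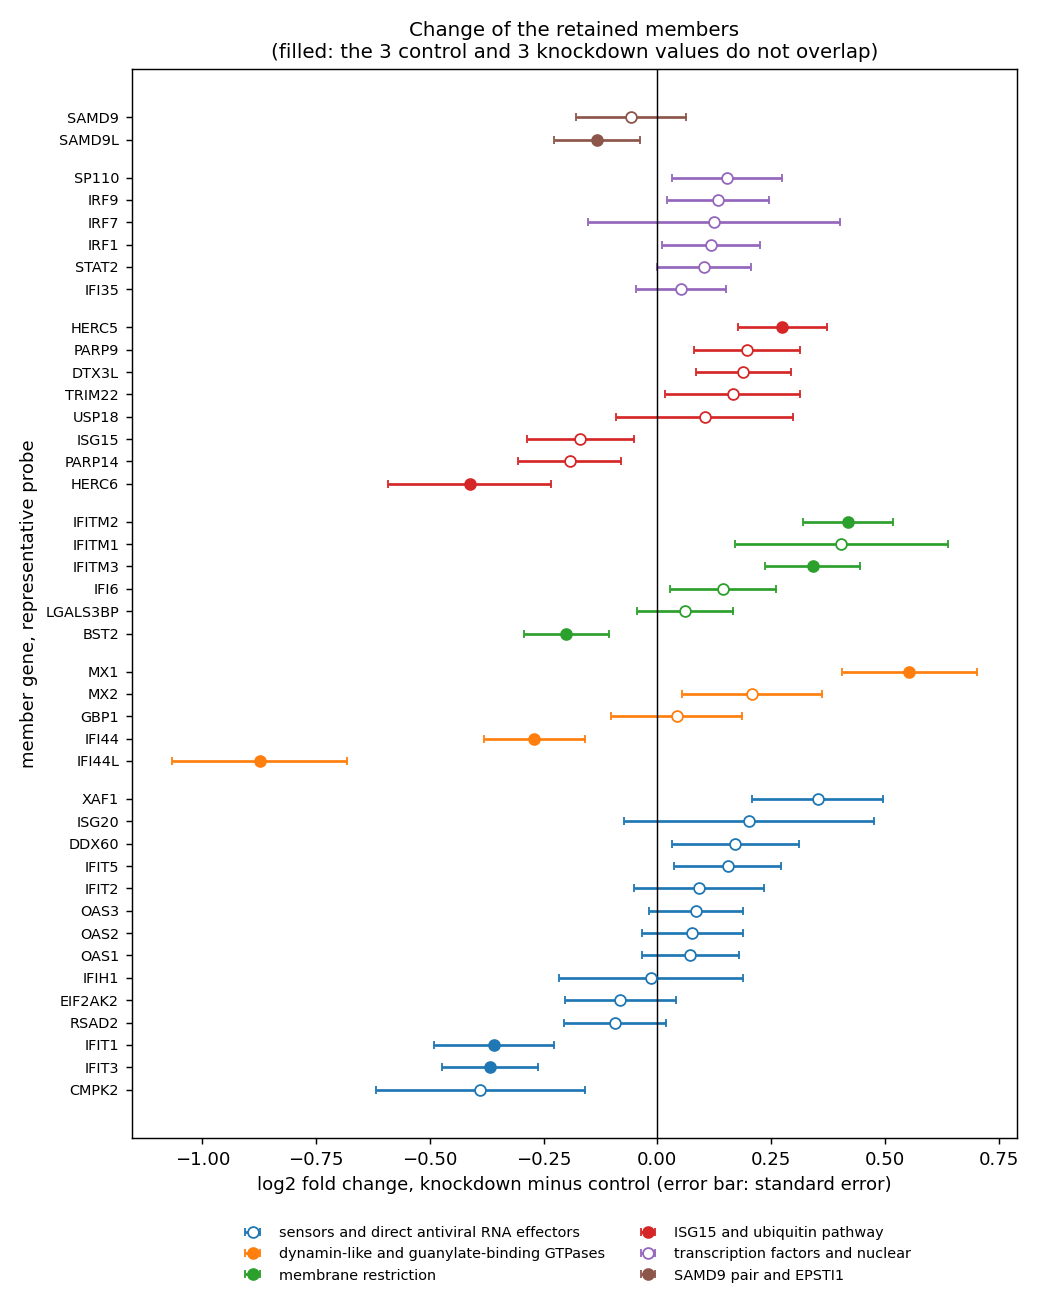
Log2 fold change of each of the 41 tested genes (knockdown minus control, representative probe, error bar 1 standard error, n = 3 arrays per group), grouped and coloured by role. Filled points mark the 11 genes whose groups did not overlap, from IFI44L at -0.87 to MX1 at 0.55, and none of the 41 passed the adjusted threshold.

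Among the 41 tested genes, the largest difference in either direction was that of IFI44L, an interferon-induced protein related to IFI44. It measured 7.67, 7.23 and 7.22 in control replicates 1 to 3 and 6.86, 6.21 and 6.44 in knockdown replicates 1 to 3. All controls were above all knockdowns, and within each group replicate 1 was the highest. Raw intensity was only 3.46 times the negative control median (median of 6 arrays, range 1.92 to 4.98), a dim signal where this scale is compressed. The log2 fold change was -0.87 (SE 0.19, limma, adjusted p = 0.0882), that is 1.83-fold lower after knockdown on this scale. With the replicate number as a block, it passed the threshold, as given above. Without knockdown replicate 1 it was also called, at -1.05 (limma, adjusted p = 0.0331), and without both replicate 1 arrays at -0.90 (limma, adjusted p = 0.0178). In the other 15 of 18 alternatives it was not called, among them the fit without control replicate 1 (-0.73, limma adjusted p = 0.198) and that with the slide row as a term (-0.72, limma adjusted p = 0.594). Over all 18, the log2 fold change ran from -1.25 to -0.58. IFI44 measured 10.29, 10.40 and 10.48 in the controls and 10.25, 10.13 and 9.98 in the knockdowns. These groups were separate by a narrow margin between control and knockdown replicate 1 (log2 fold change -0.27, limma adjusted p = 0.380), and the value was -0.39 without both replicate 1 arrays.

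MX1, a dynamin-like GTPase that blocks influenza and other viruses, lay at the opposite end of the list. It measured 11.17, 11.02 and 11.27 in the controls and 12.00, 11.50 and 11.61 in the knockdowns. Every knockdown array was above every control, with knockdown replicate 1 the highest by a clear margin. The log2 fold change was 0.55 (SE 0.15, limma, adjusted p = 0.160), or 1.47-fold higher, and it was 0.41 without both replicate 1 arrays (limma, adjusted p = 0.158). Its paralog MX2 had a log2 fold change of 0.21 with overlapping groups, and GBP1 one of 0.04.

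The interferon-induced transmembrane proteins, which restrict the fusion of virus and cell membranes, had higher means in the knockdown for each of the 3 family members on the list. IFITM2 measured 13.50, 13.52 and 13.43 in the controls and 13.99, 13.78 and 13.93 in the knockdowns. The groups were separate, and differed by 0.42 in log2 (SE 0.10, limma adjusted p = 0.112), and this was called in 1 of 18 alternatives, normexp background correction with quantile normalization (limma, adjusted p = 0.0486). IFITM3 measured 12.76, 12.80 and 12.59 in the controls and 13.16, 12.98 and 13.04 in the knockdowns. Its groups were separate too (log2 fold change 0.34, limma adjusted p = 0.220). IFITM1 measured 11.10, 10.71 and 10.67 in the controls and 11.72, 10.78 and 11.19 in the knockdowns. Its groups overlapped, because knockdown replicate 2 was below control replicate 1 (log2 fold change 0.40, limma adjusted p = 0.547). Its value was 0.16 without knockdown replicate 1, 0.63 without knockdown replicate 2 and 0.30 without both replicate 1 arrays. The 3 genes have closely related sequences, and whether a probe also binds the transcript of another family member was not tested.

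In the rest of this group, BST2 (tetherin), which holds budding virus at the cell surface, measured 12.89, 12.95 and 12.85 in the controls and 12.77, 12.66 and 12.65 in the knockdowns. The values were separate and lower after knockdown by 0.20 on the log2 scale (log2 fold change -0.20, limma adjusted p = 0.452), although scaling to the spike-in controls turned the sign to 0.04. IFI6 and the secreted glycoprotein LGALS3BP had log2 fold changes of 0.14 and 0.06 with overlapping groups.

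**Figure D3:**
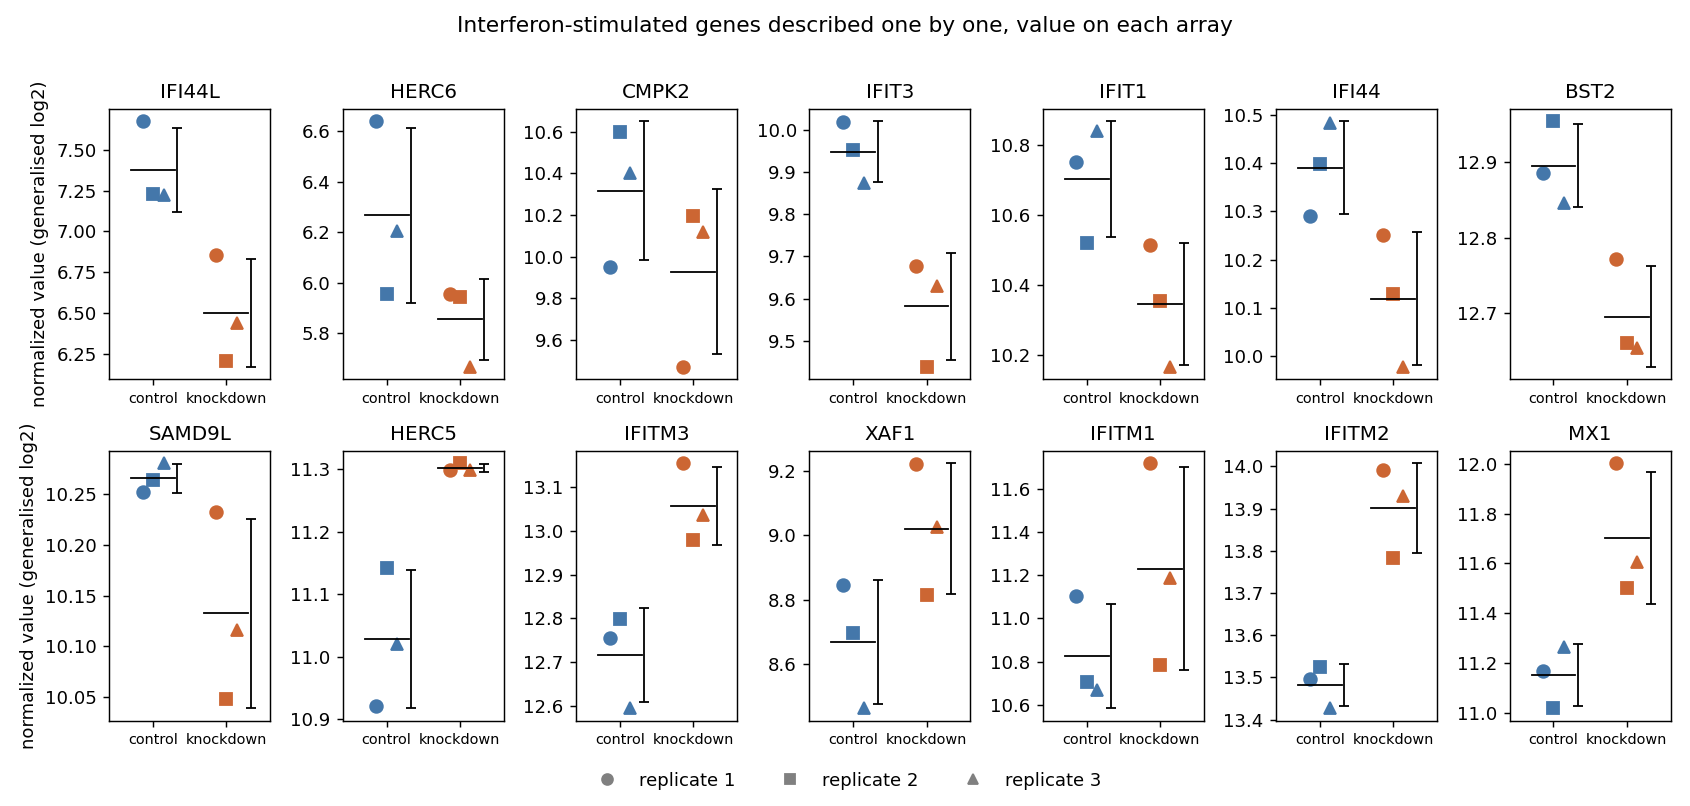
Normalized value (generalised log2 scale) of the 14 genes described one by one, on each control array (blue) and knockdown array (orange), with the replicate number as the symbol, the group mean as a line and the error bar of 1 SD (n = 3). The axis of each panel has its own range, and genes run from IFI44L (-0.87) to MX1 (0.55) by log2 fold change. Groups overlap for CMPK2, XAF1 and IFITM1 and do not for the other 11.

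The sensors and antiviral effectors of the list, most of which act on RNA or nucleotides, lay on both sides of 0. Among the IFIT genes, IFIT3 measured 10.02, 9.95 and 9.87 in the controls and 9.68, 9.44 and 9.63 in the knockdowns. All knockdowns were lower (log2 fold change -0.37, SE 0.11, limma adjusted p = 0.193). IFIT1 measured 10.75, 10.52 and 10.84 in the controls and 10.51, 10.36 and 10.17 in the knockdowns. Its groups were separate by a small gap, between control replicate 2 and knockdown replicate 1 (log2 fold change -0.36, limma adjusted p = 0.320). The neighbouring IFIT2 and IFIT5 had log2 fold changes of 0.09 and 0.15, with overlapping groups.

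CMPK2, a mitochondrial nucleotide kinase, measured 9.95, 10.60 and 10.40 in the controls and 9.47, 10.19 and 10.12 in the knockdowns. Knockdown was lower in each of the 3 numbered pairs, and replicate 1 was the lowest of both groups (log2 fold change -0.39, limma adjusted p = 0.558). Its value was -0.16 without knockdown replicate 1, -0.25 without control replicate 2 and -0.34 without both replicate 1 arrays. XAF1, a pro-apoptotic protein, measured 8.85, 8.70 and 8.46 in the controls and 9.22, 8.81 and 9.03 in the knockdowns, higher in each pair but with groups that overlapped (log2 fold change 0.35, limma adjusted p = 0.382). The second XAF1 probe gave 0.21. The 2′-5′ oligoadenylate synthetases make the messenger that activates RNase L, and OAS1, OAS2 and OAS3 had representative log2 fold changes of 0.07, 0.08 and 0.08. The OAS2 probes differed in size: its representative overlapped, while its other 2 probes had separate groups at 0.22 and 0.34 (limma, adjusted p = 0.470 and 0.175). Of the rest of this group, RSAD2, EIF2AK2 (the kinase PKR) and IFIH1 (the RNA sensor MDA5) had log2 fold changes of -0.09, -0.08 and -0.01, and ISG20 and DDX60 of 0.20 and 0.17, with overlapping groups in each. A second OAS3 probe measured 5.49, 5.29 and 5.51 in the controls and 5.71, 5.78 and 5.49 in the knockdowns. Its groups overlapped (log2 fold change 0.23, limma adjusted p = 0.501). By the scanner software's flag, it cleared background on 2 knockdown arrays and on no control. It was retained only through knockdown replicates 1 and 2, which exceeded the filter's threshold. Such a filter favours a higher knockdown mean, so that the direction of this probe cannot be judged. The second probes of EIF2AK2, IFIT2, IFITM1 and SAMD9L had the sign of the representative probe. With CMPK2 and XAF1 counted in, 8 of the 14 tested sensors and effectors had a higher mean and 6 a lower one.

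HERC5 is the main ligase that attaches ISG15 to other proteins in human cells. It measured 10.92, 11.14 and 11.02 in the controls and 11.30, 11.31 and 11.30 in the knockdowns. The knockdown values lay closely together above all controls (log2 fold change 0.27, limma adjusted p = 0.305). HERC6, its relative, measured 6.64, 5.96 and 6.21 in the controls and 5.95, 5.94 and 5.67 in the knockdowns on its representative probe. Control replicate 2 and knockdown replicate 1 were nearly equal (log2 fold change -0.41, limma adjusted p = 0.414), and the value was -0.23 without control replicate 1 and -0.28 without both replicate 1 arrays. The other HERC6 probe gave 0.05 with overlapping groups, so that its probes disagree in sign. ISG15 itself had a log2 fold change of -0.17 and USP18, the protease that removes it, of 0.10, with overlapping groups. Overlapping groups were also seen for PARP9 and DTX3L, which act as a complex, at 0.20 and 0.19, for TRIM22 at 0.17 and for PARP14 at -0.19.

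The transcription factors and nuclear proteins of the list, IRF1, IRF7, IRF9, STAT2, SP110 and IFI35, had small positive log2 fold changes, from 0.05 to 0.15, and in none of the 6 were the groups separate. SAMD9L, which restricts translation, measured 10.25, 10.26 and 10.28 in the controls and 10.23, 10.05 and 10.12 in the knockdowns. The groups were separate by a very small margin (log2 fold change -0.13, limma adjusted p = 0.635), and the sign turned to 0.11 under spike-in scaling. SAMD9 had a log2 fold change of -0.06.

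Knockdown replicate 1 had the highest value of the 6 arrays for 21 of the 41 genes (51.2%), against 20.5% of all retained probes. In both groups, replicate 1 was above replicates 2 and 3 for 15 of 41 genes (36.6%), against 23.5% of all probes, and below both for 3 (7.32%), against 20.2%. The mean of both replicate 1 arrays exceeded that of the other 4 by 0.76 for ISG20, a 3′-5′ exonuclease, by 0.73 for IRF7, by 0.58 for IFITM1 and by 0.49 for IFI44L, whereas for CMPK2 the difference was -0.62. IRF7, a factor that amplifies interferon production, measured 12.93, 12.51 and 12.37 in the controls and 13.38, 12.49 and 12.32 in the knockdowns. Replicates 2 and 3 of the groups thus nearly coincided for this gene, and replicate 1 was high in both. Without both replicate 1 arrays, the median log2 fold change of the 50 probes was 0.05, compared with 0.10 for all arrays.

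**Figure D4:**
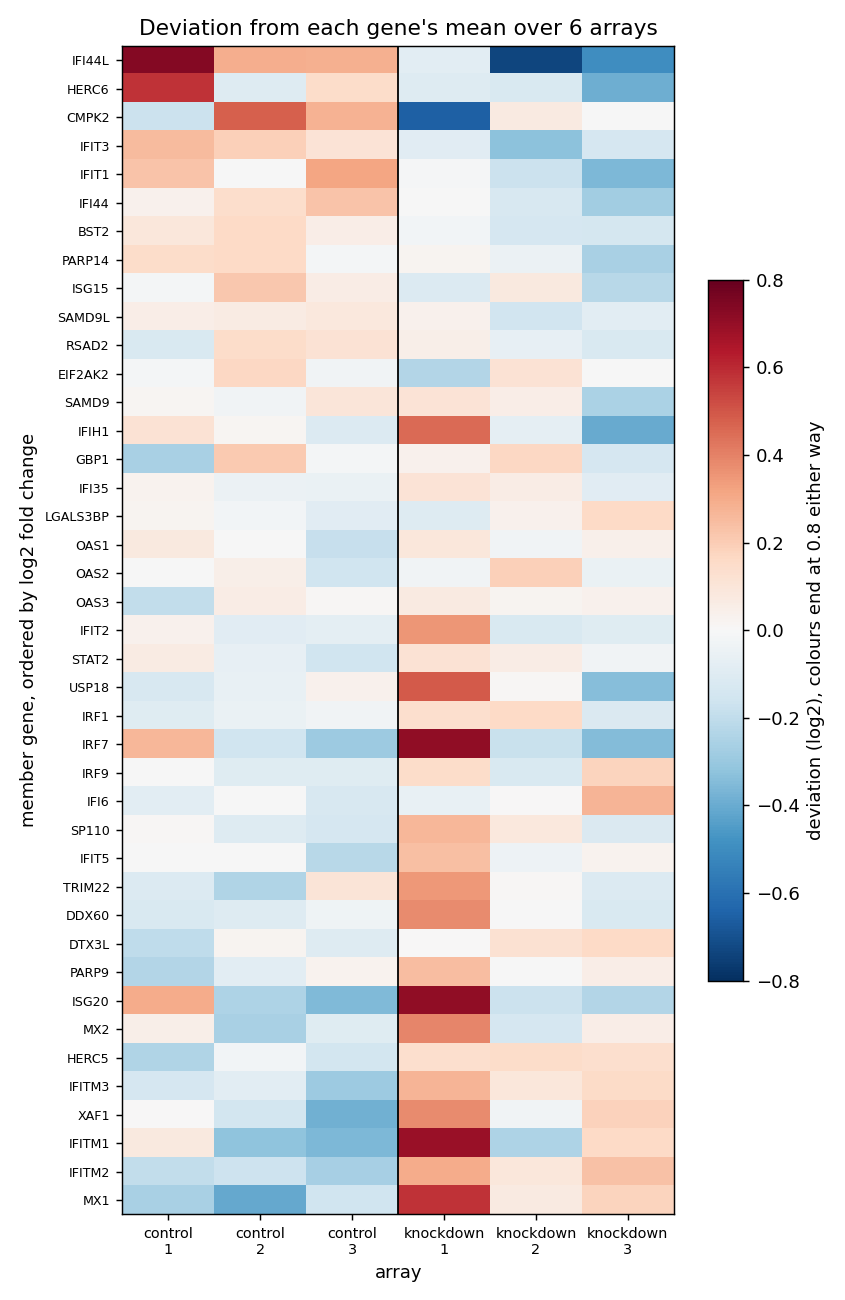
Deviation of each array's value from the gene's mean over the 6 arrays (log2 scale; red higher, blue lower; colours end at 0.8 either way), for the 41 tested genes ordered by log2 fold change. Knockdown replicate 1 holds the highest value for 21 of the 41 genes, most of them in the lower part of the map.

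Other genes of the pathway were counted from lists. Of 17 interferon ligand genes with a probe, 2 were retained. None of these 2, of 20 retained genes of receptors and signalling, of 15 nucleic acid sensors and adaptors, or of 37 further interferon-responsive genes was called in the fit without the block, and a count of 0 among so few genes is near the background of 1.56% of all probes. With the replicate block, under which 3.06% of all probes were called, 2 of the 37 further genes were called, both lower: GBP4 (limma, adjusted p = 0.0116) and TNFSF10, a death receptor ligand (log2 fold change -0.59, limma adjusted p = 0.0369). The block gave no call in the other lists of the pathway. Groups did not overlap for 5 of the 20 receptor and signalling genes (25%; 4 higher, 1 lower), 5 of the 15 sensors and adaptors (33.3%; 2 higher, 3 lower) and 10 of the 37 further genes (27.0%; 8 higher, 2 lower), against 18.6% of all probes.

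The gene with the lowest adjusted p in each of these 3 lists was picked for mention after its values were seen. IL10RB, a receptor subunit shared by type III interferons and interleukin 10, measured 10.09, 10.16 and 10.19 in the controls and 10.52, 10.59 and 10.50 in the knockdowns (log2 fold change 0.39, limma adjusted p = 0.107). IFI16, a DNA sensor, measured 11.96, 12.30 and 12.22 in the controls and 11.79, 11.82 and 11.70 in the knockdowns (log2 fold change -0.39, limma adjusted p = 0.211). GBP4, a guanylate-binding GTPase, measured 11.18, 11.50 and 11.56 in the controls and 10.37, 10.78 and 10.83 in the knockdowns (log2 fold change -0.75, limma adjusted p = 0.0794). The groups were separate for each, higher after knockdown for IL10RB and lower for IFI16 and GBP4.

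As to the identity of the cells, 11 of 12 B-cell precursor markers were above background on all arrays. Their summed level ran from 18.16 to 18.20 (log2) in the controls and from 18.33 to 18.61 in the knockdowns, without overlap. The sum is weighted to the brightest probes, such as that of CD79A, whose groups overlapped (log2 fold change 0.15). Groups did not overlap for 5 of the 11 retained markers (45.5%, against 18.6% of all probes), all higher after knockdown. None was called without the block, and CD22, CD79B and IGLL1, at 0.67, 0.55 and 0.53, were called with it (limma, adjusted p = 0.0333, 0.0449 and 0.0462). The plasmacytoid dendritic cell list had 4 of 5 genes above background on all arrays, and its sum ran from 13.99 to 14.09 in the controls and from 13.09 to 13.23 in the knockdowns. This sum is nearly that of TCF4 alone, a factor that B-lineage cells also express, with means of 14.03 and 13.10, and TCF4 was called lower (log2 fold change -0.92, limma adjusted p = 0.00378). IL3RA had a log2 fold change of -0.56 with overlapping groups (limma, adjusted p = 0.355, and 0.0425 with the block), and GZMB and LILRA4 had 0.03 and -0.08. Of the monocyte list, 3 of 4 genes with a probe were above background on all arrays, with sums of 9.09 to 9.25 in the controls and 8.84 to 8.96 in the knockdowns, and CD68 was called lower (log2 fold change -0.58, limma adjusted p = 0.0316). Of the T cell list, 1 of 5 was above background on all arrays, CD3E and CD3G were on none, and its sums of 8.11 to 8.27 and 8.15 to 8.77 overlapped. Erythroid sums overlapped as well, with HBB at background. The part of these markers in the values of the interferon-stimulated genes was not tested. All lists were read in 1 sorted cell line, not in a mixture of these cell types. In its bulk RNA, fewer cells that express a gene cannot be told apart from less RNA per cell.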

How the data were processed

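Total RNA was labelled with Cy3 and hybridised to one-colour Agilent arrays, 3 per group. The authors deposited scanner files from Feature Extraction 10.7.1.1 that hold spot intensity, not normalized between arrays, and a table of normalized log2 values for 27869 probes, which served as an alternative. The study's methods name VSN, a filter against negative controls and limma.

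Here, raw median intensities of non-control spots without outlier flags were normalized with the VSN model, written anew and fitted with a least trimmed squares quantile of 0.9, and spots of a probe were averaged. Results correlated with the deposited log2 values at r = 0.99906 to 0.99967 per array, across probes. A probe was retained where its value exceeded the 0.95 quantile of 308 negative controls by a factor of 1.1, on 2 of the 3 arrays of either group. This threshold was first applied on the raw intensity scale, which retained 35439 probes. It was moved to the normalized scale, which retained 28997 of 57176, after the number of retained probes and the calls of the first reading had been seen. Results of the first reading are given with the alternatives.

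Knockdown was set against control in R 4.3.3 by limma 3.58.1 (lmFit, eBayes, two-sided, no block), with Benjamini-Hochberg adjustment over all retained probes. A probe is called at an adjusted p under 0.05. The script was tested on simulated data. Probes were named by RefSeq accession, with a symbol for 75.4% of catalogue probes. The retained probe with the highest mean over all arrays represents a gene. Values per array are given for genes with a called probe, genes whose groups do not overlap, and the 5 highest and 5 lowest log2 fold changes. Members, lists and tests were chosen with earlier results of these data known.

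Samples of the same replicate number deviated together across probes (r = 0.40, 0.26 and 0.19 for numbers 1, 2 and 3). By this check, number 1 stands apart in both groups. Numbers 2 and 3 are hardly told apart, since replicates 2 and 3 of different number also correlated, at 0.18 and 0.15. The replicate block therefore rests on the numbers given to the samples. The number of arrays limits the precision.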

Additional observations from a re-analysis of the deposited data

How the results depend on the processing

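In 18 alternatives, 16 of them planned and 2 added after seeing the data, the log2 fold changes of the 14 genes described one by one kept their direction and their side of the threshold in 246 of 252 comparisons. Exceptions were the calls of IFI44L and IFITM2 and the signs of BST2 (0.040) and SAMD9L (0.11) under spike-in scaling. The count overstates how far the results were tested. Fits with another filter, with none, with another variance prior or with the replicate block could not move a log2 fold change. A gene that stayed uncalled also counts as kept. Spike-in scaling moved the median of all probes to 0.24 and that of the member probes from 0.10 to 0.34, and of its 482 calls 309 were higher. Under this scaling IFI44, IFIT1, IFIT3, CMPK2 and HERC6 were at -0.03, -0.12, -0.13, -0.15 and -0.17, and HERC5, IFITM3, XAF1, IFITM1 and IFITM2 at 0.51, 0.58, 0.59, 0.64 and 0.66. HERC6 was at -0.21 with normexp and quantile normalization and at -0.18 with its probes averaged, and XAF1 at 0.56 with the slide row as a term. For members called, the count of 0 became 1 with the replicate block (IFI44L), with normexp and quantile normalization (IFITM2) and without both replicate 1 arrays (IFI44L), and ran from 0 to 1 when single arrays were left out, where the 1 was IFI44L without knockdown replicate 1. The count of 451 called probes was 224 without a filter, 887 with the replicate block, 246 with the slide row as a term (20 higher), which all knockdown arrays share with 1 control, and 177 to 482 when single arrays were left out, lowest without control replicate 2. It was 263 without control replicate 1, 240 without control replicate 3, and 188 and 191 without knockdown replicates 2 and 3. The replicate block changed no other call among the member genes, and the calls it added in the other lists are given beside them. The median of the member probes ran from 0.04 to 0.15 when single arrays were left out.

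The threshold on the raw intensity scale, the first reading run, gave 365 called probes (90 higher, 275 lower) of 35439, or 1.03%, and 493 with the replicate block. Under it 0 members were called and 1 with the block, IFI44L (limma, adjusted p = 0.0243, and 0.121 without the block), groups did not overlap for 17.6% of probes, and ETV6 had an adjusted p of 0.0783 (limma). It also retained GBP2, a gene at background on every array, which was not called. The cause of these differences was not tested beyond the number of probes that enter the fit.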
